A study of Arabidopsis thaliana with 14 samples.

Results

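The genes described here were high at the chalazal pole of the Arabidopsis seed in both tissues that meet there, the chalazal endosperm and the chalazal seed coat. They were chosen on their measured levels. Signals below 25 were set to 25, and a probe set was taken if the group means of both chalazal tissues were at least 200 and at least 3 times the highest mean of the 4 other compartments. Of 22746 probe sets that are not controls, 103 met these thresholds. The probe sets of the subtilase SBT4.13, the cytochrome P450 CYP79A2 and the glucosinolate transporter GTR2 were left out, which gave 100 members. The regulator NGA4, also set aside by the rule, did not meet the thresholds. Of the 100 members, 56 were assigned to 1 gene (55 loci in all), 4 to several genes and 40 to no gene in the tables used here. None of the assigned genes had a symbol other than its locus in those tables.

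Affymetrix ATH1 arrays were hybridised with amplified RNA from parts of mature green seeds of the accession Ws-0, cut by laser capture from paraffin sections. The 7 groups, all untreated and of the same genotype, were chalazal endosperm, chalazal seed coat, seed coat, micropylar endosperm, peripheral endosperm, embryo proper and whole seeds. Each group had 2 arrays, labelled biological replicates with no statement of which plants or seeds they came from, so the p-values measure the spread between these arrays. The compartments were recognised by their form in sections, and a few nanograms of RNA were amplified for each array. The small number of arrays limits the precision of every value below. Array medians lay between 134 and 203, and replicate arrays correlated with Pearson's r of 0.818 in seed coat to 0.936 in peripheral endosperm, across probe sets, which are not independent.

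The chalaza is the pole of the seed at which the vascular strand of the funiculus ends. Sucrose and amino acids leave the maternal phloem there, and since no plasmodesmata join the maternal seed coat to the endosperm, they must be exported from one tissue and taken up by the other. The chalazal endosperm is a filial tissue that arises from the fertilised central cell, whereas the chalazal seed coat is purely maternal. A gene expressed on both sides of this boundary is therefore active in both a filial and a purely maternal tissue. Signal in both captures does not by itself show this.

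Markers separated the captures only in part. BAN, an anthocyanidin reductase of the tannin layer of the seed coat, had signals of 3.33 and 2.81 in chalazal endosperm, against 357 and 1189 in chalazal seed coat. The vacuolar processing enzyme ALPHA-VPE had 9608 and 7061 in chalazal endosperm, against 495 and 568 in chalazal seed coat. BAN was thus near 0 in chalazal endosperm, whereas the ALPHA-VPE signal in chalazal seed coat lay close to the 948 and 591 of seed coat. BAN also lay under 25 in seed coat, with 24.0 and 24.8, so it marked chalazal seed coat alone here. Other markers of these lists ran the other way. The seed coat marker DELTA-VPE had 2153 and 877 in chalazal endosperm, against 708 and 539.8 in chalazal seed coat. The endosperm markers AGL62 and IKU2 had means of 80.3 and 17.3 in chalazal endosperm, against 109.9 and 59.7 in chalazal seed coat. The summed signal of 4 measured endosperm markers (of 14 listed) was 7548 to 9827 in chalazal endosperm and 672 to 832 in chalazal seed coat, against 13649 to 23072 in the other endosperm captures. The summed signal of 5 measured seed coat markers (of 13) was 2500 to 2985 in chalazal endosperm and 7627 to 15080 in chalazal seed coat, against 14252 to 21892 in seed coat. The summed signal of 7 measured embryo markers (of 12) was 14291 to 19086 in chalazal endosperm and 1638 to 2289 in chalazal seed coat, against 103085 to 153079 in embryo proper. Among these, PAP85, a vicilin-like storage protein, had 10404 and 4861 in chalazal endosperm and 361 and 273 in chalazal seed coat. The part of neighbouring tissue in the members' signals was not tested. In such bulk captures, fewer cells of a type and less RNA per cell cannot be told apart.

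The ratio of the lower chalazal mean to the highest other compartment mean had a median of 5.49 over the members and ranged from 3.02 to 118.4. It was at least 10 in 31 members. These ratios, and the members' chalazal levels set against the other compartments below, come from the values that chose the members and are descriptions without a test. The other compartments are seed coat, micropylar endosperm, peripheral endosperm and embryo proper, and whole seeds are treated apart. The medians of the members' group means were 1437 in chalazal endosperm and 986 in chalazal seed coat, against 81.8 in seed coat, 47.7 in micropylar endosperm, 42.8 in peripheral endosperm and 46.9 in embryo proper. The compartment with the highest mean outside the chalaza was seed coat for 50 members, peripheral endosperm for 19, micropylar endosperm for 17 and embryo proper for 14.

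**Figure D1:**
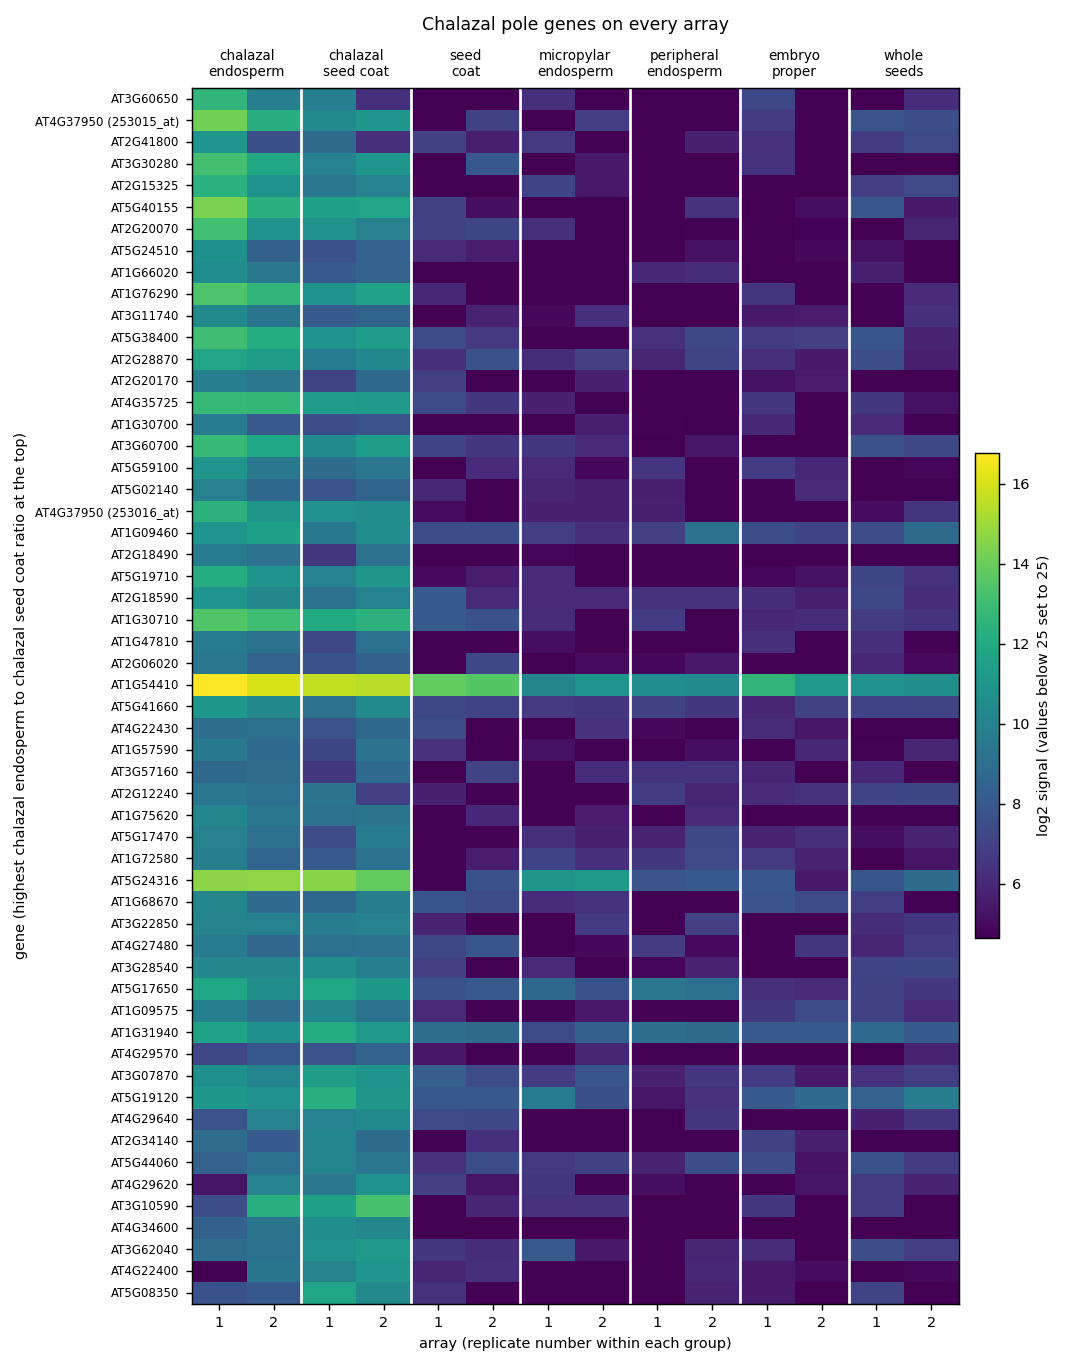
Log2 signal (values below 25 set to 25) of the members with 1 gene, in rows ordered by the ratio of chalazal endosperm to chalazal seed coat, on each array, in columns grouped by compartment. The 4 chalazal arrays at the left are bright for nearly every gene; AT4G22400 and AT4G29620 are dark on the first chalazal endosperm array.

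Separation by array was less complete than separation by mean. All 4 chalazal arrays lay above all 8 arrays of the other compartments in 94 members, which the rule favours, against 1.47% of all probe sets. The groups overlapped in the other 6, namely AT3G60650, AT3G57160, AT4G29620, AT4G22400, AT2G41800 and a probe set without a gene. In 47 members every chalazal array also met both thresholds on its own. Of the 18 members with a chalazal array under 200, the lowest was the first chalazal endosperm array in 5, the first chalazal seed coat array in 9 and the second chalazal seed coat array in 4.

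Of the 12 members with the largest ratios, 6 had no gene. The ratio of 118.4 belonged to one of these, probe set 245520_at, which had signals of 26792 and 16710 in chalazal endosperm and 6497 and 9371 in chalazal seed coat. None of the 8 arrays of the other compartments exceeded 109 for it, so the groups lay far apart. Among the genes, AT1G76290, an AMP-dependent synthetase and ligase family protein, had 10955 and 5982 in chalazal endosperm and 1859 and 3199 in chalazal seed coat. Its signals were 66.7 and 25.6 in seed coat, 5.10 and 10.8 in micropylar endosperm, 8.77 and 12.8 in peripheral endosperm, and 88.9 and 9.34 in embryo proper. AT5G40155, a defensin-like protein, had 20392 and 5232 in chalazal endosperm and 2978 and 3330 in chalazal seed coat, and its highest array in the other compartments was one of seed coat with 126. For both genes the first chalazal endosperm array was the highest of the 14, and the chalazal arrays did not overlap with the rest. AT5G19710 had 4468 and 1925 in chalazal endosperm and 1006 and 2104 in chalazal seed coat, with at most 69.3 in another compartment.

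Several members encode proteins that act on the cell wall. AT4G37950, a rhamnogalacturonate lyase of the family that cleaves the pectin backbone, was a member through both of its probe sets. The first gave 18492 and 4689 in chalazal endosperm and 1405 and 2073 in chalazal seed coat, against 8.30 and 127 in seed coat, 7.65 and 119 in micropylar endosperm, 2.72 and 5.20 in peripheral endosperm, and 113 and 23.1 in embryo proper. The second gave 5485 and 2098 in chalazal endosperm and 1722 and 1572 in chalazal seed coat, and no array of another compartment exceeded 54.5. Both probe sets were highest on the first chalazal endosperm array and were separate from the other compartments. The related lyase AT4G24430, no member, had means of 3405 in chalazal endosperm and 728 in chalazal seed coat, but 550.3 in seed coat. AT2G22620 of the same family was high more widely, with means of 2650.1 in chalazal endosperm, 3561 in chalazal seed coat and 2332 in seed coat. Of 7 listed lyase loci 5 were measured, and AT4G37950 was the 1 member.

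Other members are also wall-related. AT1G57590, a pectin acetylesterase family protein, had 756 and 467 in chalazal endosperm and 143 and 611 in chalazal seed coat, with a highest array of 82.4 in the other compartments, in seed coat. Of 6 measured pectin acetylesterases it was the 1 member, and AT1G09550 of that family had 76.4 and 80.1 in chalazal endosperm, 141 and 4837 in chalazal seed coat, and 3508 and 2801 in seed coat. For AT1G09550 the chalazal seed coat arrays thus disagreed. AT1G75620, a glyoxal oxidase-related protein, had 1179 and 699 in chalazal endosperm and 587 and 627 in chalazal seed coat, and at most 70.0 in the other compartments. Its relative AT1G19900 had the other arrangement, with means of 13.4 in chalazal endosperm and 166 in chalazal seed coat against 3779 in seed coat. AT2G41800, a wall protein of the DUF642 family, was uneven, at 2091 and 195 in chalazal endosperm and 452 and 81.4 in chalazal seed coat, and the chalazal arrays overlapped with the 125 of the first seed coat array. AT1G09460, which carries a carbohydrate-binding X8 domain, had 2073 and 2922 in chalazal endosperm and 748 and 1525 in chalazal seed coat, and its highest array in the other compartments was one of peripheral endosperm with 549.9.

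The subtilase AT5G59100, a serine protease encoded near SBT4.13, had 2003 and 721 in chalazal endosperm and 485 and 675 in chalazal seed coat, against at most 107 in the other compartments. SBT4.13 itself had means of 6868 in chalazal endosperm and 3716 in chalazal seed coat, and at most 12.5 in another compartment. The other 3 measured subtilases of the neighbourhood, AT5G59090, AT5G59130 and AT5G59190, had means of at most 58.2 in chalazal endosperm and 53.2 in chalazal seed coat. The chalazal pattern was thus present in 2 of 5 measured genes of this neighbourhood.

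A second set of members encodes oxidases, transferases and small secreted proteins. AT1G30710, a berberine bridge enzyme-like oxidase, had 11284 and 8061 in chalazal endosperm and 4100 and 5461 in chalazal seed coat, against 282 and 205 in seed coat and at most 113 in the remaining compartments. Its direct neighbour AT1G30700, of the same family, had 809.8 and 261 in chalazal endosperm and 187 and 219 in chalazal seed coat, against at most 66.0 in the other compartments. These were the 2 members among 22 measured berberine bridge enzyme-like genes, and their chalazal arrays did not overlap with the other compartments. AT3G30280, a BAHD acyltransferase family protein, had 9338 and 3777 in chalazal endosperm and 1038 and 2044 in chalazal seed coat, and its highest array in the other compartments was the second of seed coat with 251. AT1G66020, a terpenoid cyclase family protein, had 1487 and 719 in chalazal endosperm and 260.5 and 347 in chalazal seed coat, against at most 74.8 in the other compartments. AT2G15325, a lipid-transfer protein family member, had 5240 and 1831 in chalazal endosperm and 679 and 987 in chalazal seed coat, against at most 135 in the other compartments. AT5G02140, a thaumatin family protein, had 957 and 412 in chalazal endosperm and 221 and 368 in chalazal seed coat, against at most 69.7 in the other compartments. In these 4 genes the first chalazal endosperm array was the highest of all.

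The cytidine deaminase genes on chromosome 4 supplied 3 members, of 8 measured loci. Cytidine deaminases convert cytidine to uridine in pyrimidine salvage. AT4G29570 had 150.1 and 253 in chalazal endosperm and 220 and 367 in chalazal seed coat, against at most 62.2 in the other compartments. AT4G29620 had 39.7 and 1031 in chalazal endosperm and 701 and 1777 in chalazal seed coat, against 122 and 39.7 in seed coat. AT4G29640 had 223 and 1036 in chalazal endosperm and 1007 and 1386 in chalazal seed coat, against 158 and 151 in seed coat. All 3 were higher by mean in chalazal seed coat, and in all 3 the second chalazal endosperm array was above the first. AT4G29600, no member, followed a like course with 18.2 and 141 in chalazal endosperm and 274 and 543 in chalazal seed coat, and means of 12.4 to 62.5 in the other compartments. AT4G29580 had means of 137 in chalazal endosperm and 338 in chalazal seed coat, against at most 56.5 in the other compartments. AT4G29650 had means of 182 in chalazal endosperm and 331 in chalazal seed coat, but 206 in seed coat. AT4G29630 had means of 149 in chalazal endosperm and 188 in chalazal seed coat, but 135 in seed coat. AT4G29610 lacked the pattern, with means of 61.5 in chalazal endosperm and 57.3 in chalazal seed coat, against 101 in micropylar endosperm. Since these genes are close relatives, cross-hybridisation between their probe sets was not tested.

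Signalling and regulatory members included AT4G34600, which encodes CIF2, a sulfated peptide known from the formation of the Casparian strip in the root. Its signals were 343 and 640.5 in chalazal endosperm and 1557 and 1185 in chalazal seed coat, and all 8 arrays of the other compartments lay below 25. It was the 1 member with that property. The related peptide gene TWS1 (AT5G01075), known as an embryo-made signal of cuticle formation, had means of 96.9 in chalazal endosperm and 51.4 in chalazal seed coat, against 4592 in embryo proper. GSO1 (AT4G20140), a receptor for these peptides, had means of 111 in chalazal endosperm and 78.6 in chalazal seed coat, against 746 in embryo proper. Of 6 listed genes of these peptides and their receptors, these 3 were measured.

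Among transcription factors, AT1G68670 (HHO2, a GARP factor of the phosphate and nitrate response) had 1163 and 465 in chalazal endosperm and 416 and 852 in chalazal seed coat, against 233 and 178 in seed coat and 225 and 164 in embryo proper. Its relative AT1G25550 had means of 970.4 in chalazal endosperm and 3084 in chalazal seed coat but also 924 in micropylar endosperm, and was no member. AT2G34140, a cycling Dof factor, had 496 and 279 in chalazal endosperm and 1108 and 485 in chalazal seed coat, and at most 127 in the other compartments. The Dof gene AT1G29160 had means of 819 in chalazal endosperm and 1574 in chalazal seed coat, but 912 in seed coat. AT2G18490, a zinc finger protein, had 802 and 596 in chalazal endosperm and 95.7 and 575 in chalazal seed coat, against at most 27.7 in the other compartments. AT3G10590, of the MYB-related homeodomain-like proteins, had 181 and 4926 in chalazal endosperm and 3030.0 and 9609 in chalazal seed coat, against at most 95.6 in the other compartments. For AT3G10590 the first chalazal endosperm array was far below the second.

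A few members had a clear signal outside the chalaza too. AT1G54410 encodes HIRD11, a small dehydrin of the proteins that accumulate under water deficit. It had 110619 and 67589 in chalazal endosperm and 50428 and 44426 in chalazal seed coat, against 14699 and 12001 in seed coat, 1184 and 2081 in micropylar endosperm, 1472 and 1349 in peripheral endosperm, 6125 and 2284 in embryo proper, and 1726 and 1599 in whole seeds. AT5G24316, a proline-rich protein, had 25448 and 26134 in chalazal endosperm and 24694 and 14526 in chalazal seed coat, against 2098 and 2413 in micropylar endosperm and at most 270.2 in the other compartments. Probe set 260433_at, without a gene, had 17649 and 11440 in chalazal endosperm and 17786 and 12321 in chalazal seed coat, against 1271 and 1177 in embryo proper and 844 and 1911 in peripheral endosperm. The chalazal arrays lay above the rest in all 3, while the next compartment was a different one in each.

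**Figure D2:**
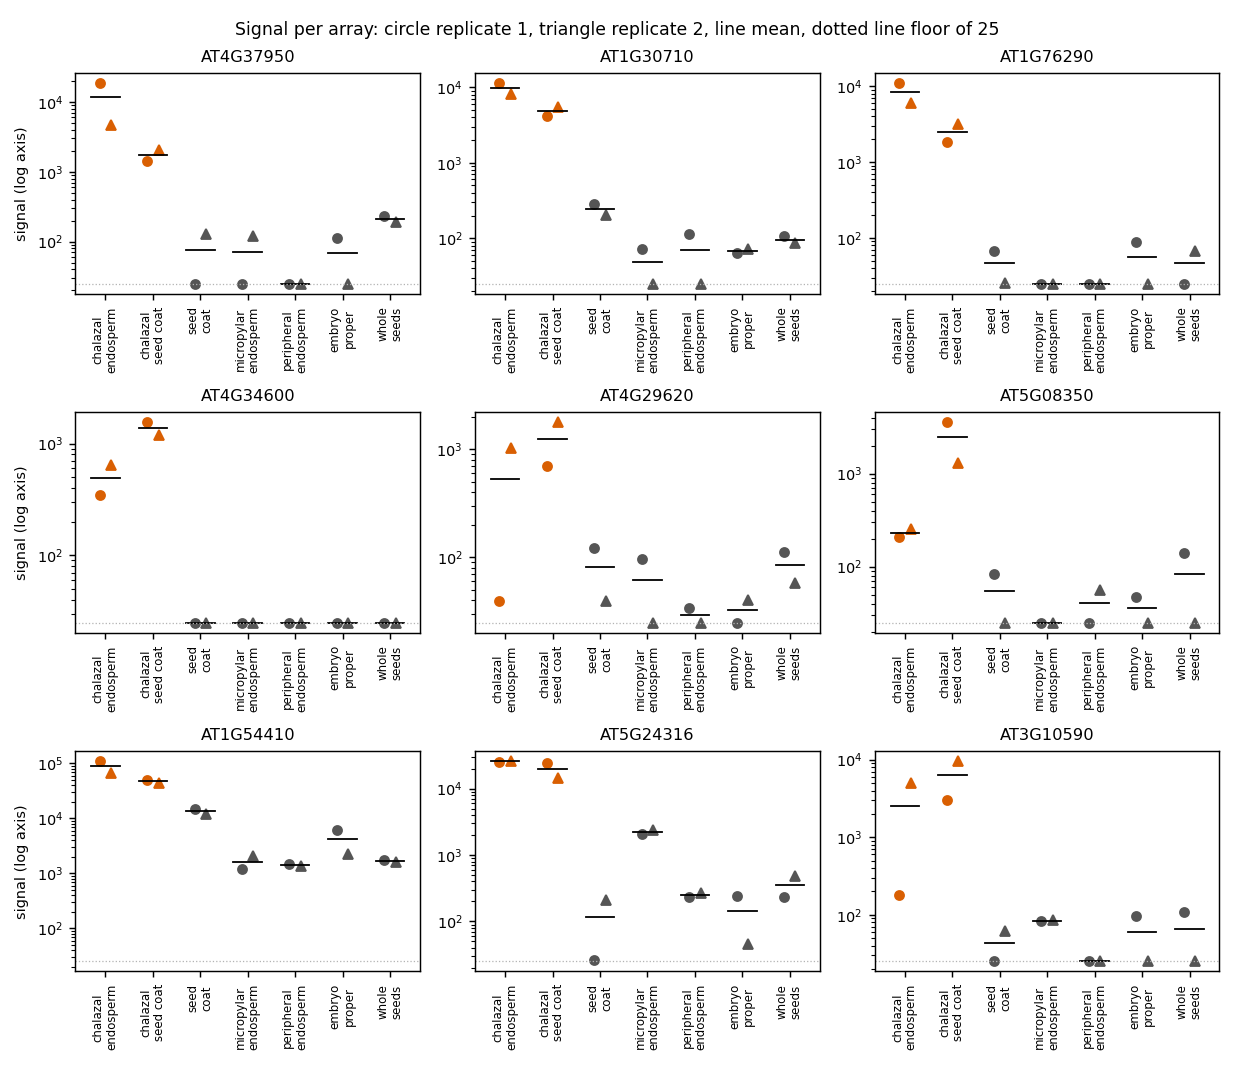
Signal (log axis) on each array for 9 members, with chalazal captures in orange and the other groups in grey; circles are the first and triangles the second array, lines are means, and the dotted line is the floor of 25. For AT4G37950 the first of its probe sets is drawn; chalazal arrays lie above the others in these panels except for the first chalazal endosperm array of AT4G29620.

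The members at the edge of the rule were AT1G68670 with a ratio of 3.09, AT4G27480, of the glycosyltransferase 14 family, with 3.06, and AT2G41800 with 3.02. The 3 probe sets next outside had ratios of 2.94, 2.94 and 2.93, so that no gap marked the threshold. The next outside had means of 1561 in chalazal endosperm and 1834 in chalazal seed coat, against 531 in seed coat.

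Members lay near each other on the chromosomes. Of 54 member loci placed in the RefSeq gene table, 13 had another member within 10 genes, or 24.1%, against 3.86% of 12208 other measured loci. AT1G30700 and AT1G30710 were direct neighbours. The other groups were AT2G18490 with AT2G18590, AT2G20070 with AT2G20170, AT3G60650 with AT3G60700, AT4G22400 with AT4G22430, and the 3 cytidine deaminase genes. This is a description of position, without a test.

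By the same thresholds applied to 1 chalazal tissue, 263 probe sets were high in chalazal endosperm and 511 in chalazal seed coat. The 103 shared probe sets made up 39.2% of the endosperm list and 20.2% of the seed coat list. In the 120 probe sets of the endosperm list with a mean of at least 1000 there, the chalazal seed coat mean was a median of 35.8% of the chalazal endosperm mean (quartiles 23.3% and 50.2%). In the 293 probe sets of the seed coat list with a mean of at least 1000 there, the chalazal endosperm mean was a median of 7.20% of the chalazal seed coat mean (quartiles 2.48% and 29.3%). Both sets include members, 62 and 52 of them or of the left-out genes. The lists differ in length and come from the values the rule used, so these shares are a description. In these 293 probe sets of the seed coat list, that percentage ran from 0.095% to 667%. The lowest was that of SWEET10, a sucrose exporter, which had 34178 and 18253 in chalazal seed coat but 12.4 and 19.5 in chalazal endosperm.

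**Figure D3:**
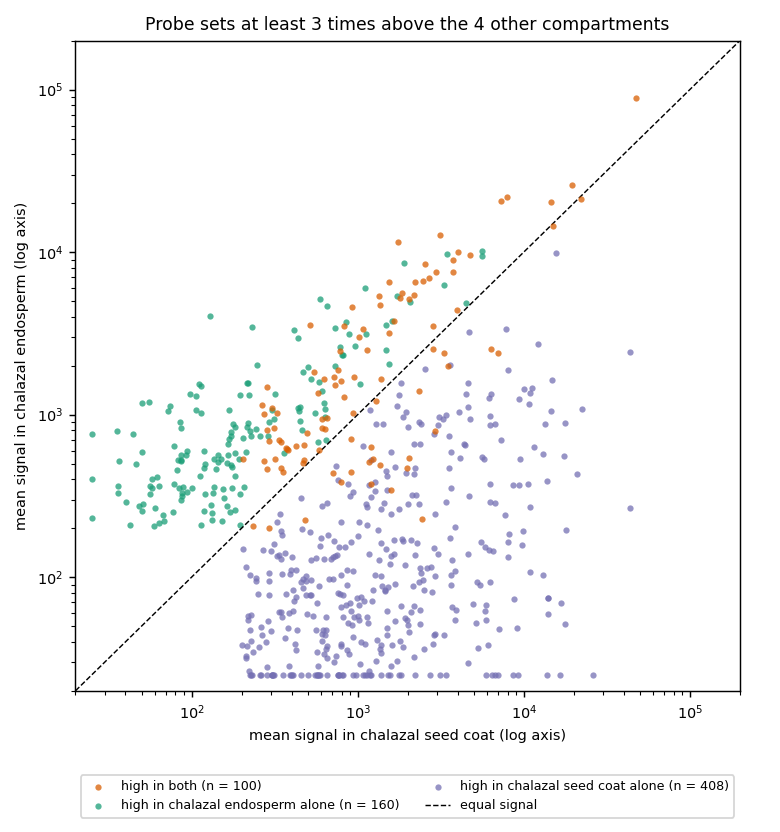
Mean signal in chalazal endosperm (log axis, values below 25 set to 25) against mean signal in chalazal seed coat (log axis) for probe sets at least 3 times above the 4 other compartments in both tissues (orange), in chalazal endosperm alone (green) or in chalazal seed coat alone (purple). The 3 left-out genes are not drawn. Most orange points lie above the line of equal signal, and many purple points lie at the floor of the endosperm axis.

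The rule asked for a high level in both chalazal tissues and did not set which was higher, so chalazal endosperm was compared with chalazal seed coat by test. The rule used these same arrays, however, and left out probe sets high in 1 chalazal tissue alone (160 and 408). The choice thus disfavours large differences between the 2 tissues, and nothing is read from the members' share of calls. The mean was higher in chalazal endosperm for 74 members and in chalazal seed coat for 26, while it was higher in chalazal endosperm for 49.7% of all probe sets. The ratio of the means had a median of 1.75 and quartiles of 0.963 and 2.67. On the log2 scale the members' median difference was 1.00, against 0.05 over all 14252 probe sets tested. By limma with Benjamini-Hochberg adjustment, 0 of the 100 members were called higher in chalazal endosperm, where 12.9% of all probe sets were, and 4 were called lower, where 12% were (24.9% in either direction). At an unadjusted p under 0.05 these counts were 17 and 8, where 18.9% of all probe sets were higher and 17.1% lower. A p that misses the threshold does not show that the tissues were alike for a gene.

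The 4 members called lower in chalazal endosperm were AT5G08350, AT4G22400 and the probe sets 257943_at and 257942_at. AT5G08350, a GRAM domain protein, had 207 and 250.4 in chalazal endosperm, against 3572 and 1311 in chalazal seed coat, a log2 difference of -3.25 ± 0.89 (SE, limma adjusted p = 0.0134). Its tissues did not overlap and differed by more than their replicates. AT4G22400 had 9.17 and 664 in chalazal endosperm, against 1078 and 2079 in chalazal seed coat, a log2 difference of -3.54 ± 1.08 (SE, limma adjusted p = 0.0242). Probe set 257943_at had 58.0 and 1537 in chalazal endosperm, against 2031 and 3782 in chalazal seed coat, a log2 difference of -3.21 ± 1.06 (SE, limma adjusted p = 0.0358). The first chalazal endosperm array carried much of the difference in these 2. Probe set 257942_at had 212 and 726 in chalazal endosperm, against 1290 and 2652 in chalazal seed coat, a log2 difference of -2.24 ± 0.74 (SE, limma adjusted p = 0.0366).

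Most or all of these calls were lost without the first chalazal endosperm array, or when 1 of the chalazal seed coat arrays was left out. Such a fit has 1 array in a group and can lose calls for any probe set. Whether the loss is particular to the members was not tested. The difference of AT5G08350 was nearly as large without the first chalazal endosperm array (log2 difference -3.11, limma adjusted p = 0.075), whereas that of AT4G22400 was -1.17 and that of 257943_at -0.85. Leaving out the first chalazal seed coat array gave 1 member called higher, AT3G60650, where 7.81% of all probe sets were, and leaving out the second gave 4, among them AT2G18490, where 13% were. Without the second chalazal endosperm array 7 members were called higher and 6 lower, where the calls took in 8.8% of all probe sets as higher and 10.3% as lower. The 7 included AT4G37950 by its first probe set (log2 difference 3.44, limma adjusted p = 0.0482), AT3G60650, AT2G20070, AT2G15325 and AT5G24510, a 60S acidic ribosomal protein P1. The lower ones then also held AT4G29620 and AT3G10590. With all arrays, AT4G37950 had a log2 difference of 2.45 ± 0.94 (SE, limma adjusted p = 0.070) for its first probe set and 1.04 ± 0.72 (SE, limma adjusted p = 0.322) for its second.

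Members higher in chalazal endosperm shared an order of replicates. Of these 74, the first chalazal endosperm array was above the second in 68 (91.9%), by a median of 0.97 on the log2 scale, and the second chalazal seed coat array was above the first in 62 (83.8%), by a median of 0.65. Both held in 57. Of the 26 members higher in chalazal seed coat, these counts were 13 and 12, and both held in 3. Among the 160 probe sets high in chalazal endosperm alone, the shares were 75% and 73.8%, and among the 408 high in chalazal seed coat alone they were 40.4% and 31.9%. Over all probe sets they were 45.8% and 50.6%. The arrays on which the endosperm-biased members were high were thus also those on which other genes of the chalazal endosperm were high, in both tissues. What separates the replicates was not tested.

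**Figure D4:**
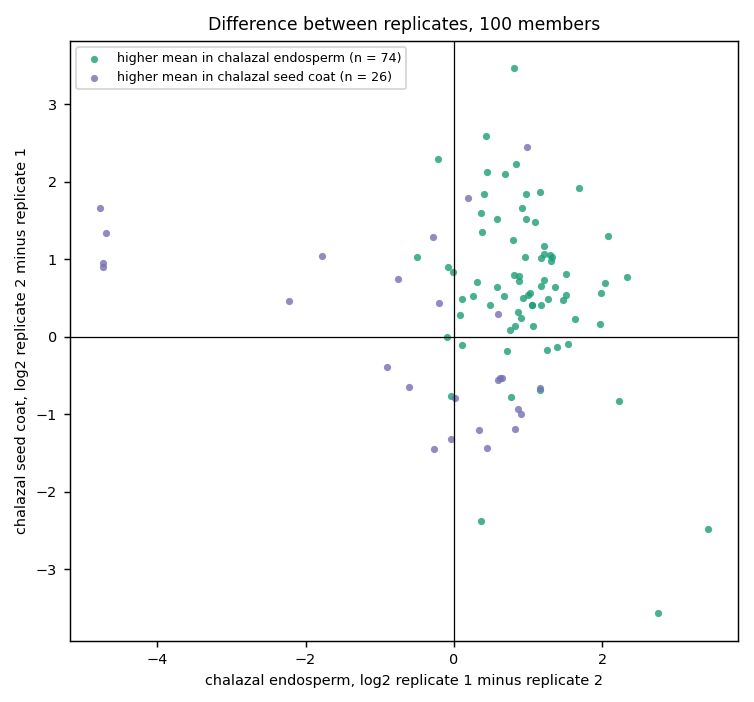
Log2 difference between replicate arrays for each member, in chalazal endosperm (first minus second, horizontal) and chalazal seed coat (second minus first, vertical), with members higher by mean in chalazal endosperm in green and those higher in chalazal seed coat in purple. Of the green points, 57 of 74 lie to the right of and above 0; 4 purple points at the far left, AT4G22400, AT4G29620, AT3G10590 and 257943_at, were low on the first chalazal endosperm array.

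Outside the chalaza, where the rule held the members low without setting an order, seed coat was compared with the mean of micropylar and peripheral endosperm. By limma, 14 members were called higher in seed coat, where 15.5% of all probe sets were, and 4 lower, where 16.7% were (32.2% in either direction). The rule held the members low in these captures and some lay at the floor, so nothing is read from their share of calls. Their median log2 difference was 0.54, against 0.00 over all probe sets. Dividing each array by its median shifted the median of all probe sets by -0.47 and gave 11 members higher and 6 lower. It called 5282 of the 14252 probe sets, 27.8% of them higher. Quantile normalization shifted the median by -0.17 and gave 10 and 5. With it 4830 probe sets were called, 41.5% of them higher.

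The largest called differences among members with a gene were those of HIRD11 (AT1G54410) and AT5G24316, already given by array. HIRD11 was higher in seed coat than in the 2 endosperm captures by 3.16 ± 0.35 on the log2 scale (SE, limma adjusted p = 5.7e-06), and AT5G24316 was lower by -3.35 ± 0.68 (SE, limma adjusted p = 0.00122). The groups did not overlap for HIRD11. By the signals given above, AT5G24316 was far higher in micropylar endosperm than in peripheral endosperm or seed coat. Its difference thus rests largely on micropylar endosperm. Probe set 260433_at was lower in seed coat, with 6.57 and 18.5, than in micropylar endosperm, with 158 and 86.6, and peripheral endosperm; its log2 difference of -3.95 (limma adjusted p = 1.4e-06) understates the change because both seed coat arrays lay under 25. The oxidase AT1G30710 was higher in seed coat by 2.34 ± 0.60 (SE, limma adjusted p = 0.0064), and HHO2 (AT1G68670) by 2.19 ± 0.66 (SE, limma adjusted p = 0.0177). AT4G35725, AT2G20070, AT4G29640 and AT4G27480 were also called higher, and AT1G72580 lower. Without the first seed coat array the difference of AT5G24316 was -1.85, and without the second it was -4.85, so the seed coat arrays disagreed. That of AT1G30710 was 2.11 without the first. Of the 18 calls, 6 passed without either seed coat array, HIRD11 among them.

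Whole seeds, which the rule did not use, contain all compartments. The whole seed mean was below the lower of the chalazal means for all 100 members, as their choice favours, against 29.6% of all probe sets. It was above the highest of the 4 non-chalazal means for 35, against 16.4% of all probe sets, within their range for 58, against 70.5%, and below all 4 for 7, against 2989 of 22746 probe sets. The rule held these 4 means low beside the chalazal ones, so the choice bears on these shares too. They are a description without a test. The median of the members' whole seed means was 84.9. HIRD11, at 1726 and 1599, was within that range by mean. For AT4G37950 the first probe set had 229 and 190 in whole seeds, above every array of the non-chalazal compartments. For CIF2 (AT4G34600) both whole seed arrays lay below 25, at 14.8 and 13.9.

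**Figure D5:**
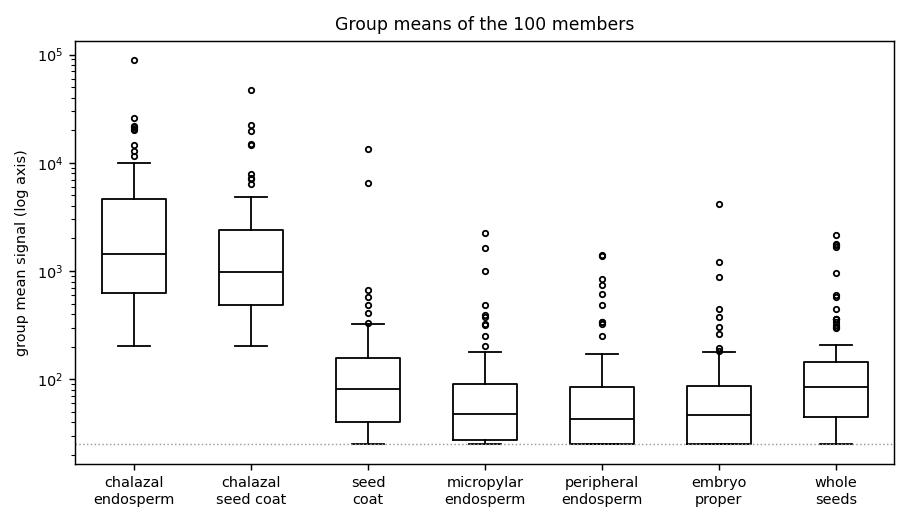
Group means of signal (log axis, values below 25 set to 25) of the 100 members in each capture; boxes span the quartiles with the median, whiskers reach to 1.5 times that span, and circles are members beyond. The dotted line is the floor; chalazal medians are 1437 and 986, and the whole seed median is 84.9.

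Pathway genes that are no members were compared within each tissue type, since the chalaza is known for transport, cytokinin and glucosinolate genes. In chalazal endosperm against the mean of micropylar and peripheral endosperm, limma called 4.66% of the tested probe sets higher and 4.81% lower (9.47% together). In chalazal seed coat against seed coat, it called 7.21% higher and 7.84% lower (15.1% together). Of 41 listed transport and unloading genes 7 were tested, with 1 called higher in chalazal endosperm and 3 higher and 1 lower in chalazal seed coat. The medians of these 7 were 0.86 in the endosperm comparison and 0.91 in the seed coat comparison, against 0.01 and -0.06 over all probe sets. The vacuolar manganese transporter gene MTP8 had 83.3 and 206 in chalazal endosperm, against 3.99 and 3.13 in micropylar and 66.4 and 10.2 in peripheral endosperm (limma adjusted p = 0.0455), and these groups did not overlap. Its log2 difference of 2.04 is set in part by the floor of 25, under which 3 of these 4 micropylar and peripheral arrays lay. MTP8 was higher still in embryo proper, with 688 and 809, so its signal was not particular to the chalaza.

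In chalazal seed coat the log2 difference of SWEET10 was 9.96 or more, a lower bound since both seed coat arrays lay under 25 (limma adjusted p = 1.3e-07). The sugar exporter SWEET7 had 1579 and 3088 in chalazal seed coat, against 463 and 620.4 in seed coat (log2 difference 2.04, limma adjusted p = 0.0032). The glucosinolate transporter GTR1 had 1072 and 1058 in chalazal seed coat, against 61.4 and 486 in seed coat (log2 difference 2.62, limma adjusted p = 0.0127). The groups were separate in all 3. SWEET15 went the other way, with 252 and 316 in chalazal seed coat, against 13994 and 15670.0 in seed coat (log2 difference -5.71, limma adjusted p = 5.8e-07). SWEET7 and GTR1 were not particular to chalazal seed coat. SWEET7 had means of 5363 in chalazal, 2599 in micropylar and 2727 in peripheral endosperm, and GTR1 had 4166, 1521 and 1650 there. All of these lay above the chalazal seed coat means of 2333.5 for SWEET7 and 1065 for GTR1.

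In the cytokinin list 1 of 29 genes was tested, the response regulator ARR22, and it was called in both comparisons. It had 628 and 240.4 in chalazal endosperm and 23601 and 18562 in chalazal seed coat, against 310 and 655 in seed coat and at most 133 in the other endosperm captures. The log2 differences were 2.84 in endosperm (limma adjusted p = 0.0231) and 5.54 in seed coat (limma adjusted p = 0.00053). Of the glucosinolate list 4 of 23 genes were tested, with 1 called higher in chalazal endosperm and 2 in chalazal seed coat. The calls in chalazal seed coat were GTR1 and MYC3. MYC3, a transcription factor of glucosinolate synthesis, had 1498 and 2323 in chalazal endosperm, against 503 and 509 in micropylar and 673 and 802 in peripheral endosperm (log2 difference 1.61, limma adjusted p = 0.0082). It had 2965 and 2133 in chalazal seed coat, against 546 and 709.9 in seed coat (log2 difference 2.01, limma adjusted p = 0.0039).

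Of the cell death and vacuolar protease list 8 of 18 genes were tested, with 0 called higher and 1 lower in each comparison; at an unadjusted p under 0.05, DELTA-VPE was higher in chalazal endosperm and PASPA3 in chalazal seed coat. The vacuolar processing enzyme BETA-VPE was lower in chalazal endosperm, with 11338 and 8446, than in micropylar endosperm, with 21068 and 25122, and peripheral endosperm, with 24103 and 19042 (log2 difference -1.18, limma adjusted p = 0.0107). DELTA-VPE was lower in chalazal seed coat, with 708 and 539.8, than in seed coat, with 1736 and 2102 (log2 difference -1.63, limma adjusted p = 0.0316). The groups were separate for both genes. No gene of the lists for gibberellin and abscisic acid, vascular tissue or suberin could be tested here.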

How the data were processed

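The authors deposited linear array intensities, processed in GCOS according to the labels and the submitters' processing notes. Its version and algorithm are not named there. These intensities were used as given. Gene names came from the platform table for 1 gene per probe set (13513 of 22746 probe sets), several (503) or none (8730), with symbols from the RefSeq gene table (assembly TAIR10.1), which also gave the order of genes.

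Values below 25 were set to 25 and log2 was taken. With limma 3.58.1 (R 4.3.3), each of the 7 groups received its own mean in a fit of the 14 arrays, with 7 residual degrees of freedom and an intensity trend. Both arrays of at least 1 group had to lie above their array's median, which left 14252 probe sets, all 100 members included because of their chalazal levels. P-values were adjusted by Benjamini-Hochberg over these and called under 0.05. The fit was tested on simulated data, in which it missed many of the smaller changes.

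Members and gene lists were chosen with earlier results of these data known, and the gene families, members named beyond the leading ones and their roles were chosen after values were seen. Named by rule were the 12 members with the largest ratios, the called members of the chalazal comparison (up to 6 each way), 3 on each side of the ratio threshold, and pathway genes called; at most 4 probe sets without a gene were named. GTR2 and CYP79A2 were removed from the pathway counts after a first count had included them, because the rule uses their chalazal contrast. Alternatives changed the floor, filter, scaling, groups, replicates and thresholds. No sequences are given.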

Additional observations from a re-analysis of the deposited data

How the results depend on the processing

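Replicate numbers did not pair the arrays: over 21 pairs of groups the correlation of same-numbered deviations was -0.06 to 0.10, and 0 pairs exceeded 0.1. With a replicate block, 1 member was called higher in chalazal endosperm than in chalazal seed coat, as with each array divided by its median. Members called lower there numbered 0 with no floor and 1 with no filter. Leaving out 1 array gave 0 to 7 higher and 0 to 6 lower. For seed coat against the other endosperm captures, 2 members were called lower with no floor and 2 with no filter, and leaving out 1 array gave 9 to 17 higher and 1 to 3 lower. Of all probe sets called in that comparison, 27.8% were called higher with median scaling, against 48.1% of those called as reported. In chalazal seed coat against seed coat, 70.3% of the called probe sets were higher with it, against 47.9% as reported.

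Of the pathway genes, those called higher in chalazal endosperm numbered 1 with no filter, against 3, and those called lower numbered 0 with quantile normalization, against 1; without 1 array they were 1 to 2 and 0 to 1. Those called lower in chalazal seed coat numbered 1 with no floor or with median scaling, against 2; without 1 array, 4 to 5 were higher and 1 to 2 lower. The causes were not tested.

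The rule gave 158 members at a ratio of at least 2, 55 at a ratio of at least 5, and 47 where every chalazal array had to pass against every other array. Without 1 array it gave 81 to 115, of which 76 of 81 were members without the second chalazal seed coat array and 96 of 115 without the first. Signals near 25 carry no order, and the 2 arrays per group limit every call.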
